A study of Mus musculus with 4 samples.

Results

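The genes described here are the feedback inhibitors and early transcription factor genes of the extracellular signal-regulated kinase (Erk) pathway: the MAP kinase phosphatases *Dusp6* and *Dusp4*, the Sprouty genes *Spry1*, *Spry2* and *Spry4*, the Sprouty-related genes *Spred1* and *Spred2*, the ETS factors *Etv4* and *Etv5*, and the zinc finger factor *Egr1*. They were chosen by symbol, as known outputs of fibroblast growth factor (Fgf) signalling to Erk. No rule on their values was used, but earlier results of these data were known. All 10 were found among the 22718 genes of the RNA-seq, and all 10 passed an RPKM of 1 in both libraries. RPKM counts reads relative to gene length and library size, so it compares genes per length.

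The study asked which genes depend on Prep1 in mouse embryonic stem (ES) cells. Prep1, encoded by *Pknox1*, is a homeodomain protein of the TALE class that binds DNA together with Pbx partners. RNA-seq of poly(A) RNA was made from 1 wild type line and from 1 line labelled *Prep1*-/-, which the study calls KO2, both of strain C57BL/6 and grown on gelatin with leukemia inhibitory factor and serum. ChIP-seq with an antibody to Prep1 was made in wild type ES cells, for which the protocol names R1 cells while the strain entry is C57BL/6, and the input DNA library was not analysed here.

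Fgf ligands bind receptor tyrosine kinases, which pass the signal through adaptors, Ras, Raf and Mek to Erk. Active Erk switches on its own brakes: *Dusp6* and *Dusp4* remove the activating phosphates from Erk in the cytoplasm and the nucleus, while Sprouty and Spred proteins act further up, between the receptor and Raf. In mouse ES cells the pathway is fed largely by *Fgf4* that the cells make themselves, and it is known for moving them towards differentiation, so the RNA of these genes is commonly read as a gauge of Erk activity.

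Each genotype has 1 library, so no test between genotypes was possible and no p-value is given. The difference between the libraries is given as a ratio of RPKM values, *Prep1*-/- over wild type, with an exact (Clopper-Pearson) 95% interval from the reads of the gene. The interval covers counting error only, and reads from amplified libraries are not independent molecules. A gene was called lower if its ratio was below 0.7 and its wild type RPKM exceeded 1, and higher if its ratio was above 1.5 and its *Prep1*-/- RPKM exceeded 1. The libraries held 29596294 and 25717811 reads, wild type first here and throughout. These sums are several times the depth that the study's methods state, and intervals from fewer independent reads would be wider. *Pknox1* itself had 505 and 332 reads and RPKM values of 7.85 and 5.78, a ratio of 0.736 (95% interval 0.638 to 0.846). Its RNA was thus not lost from the library labelled *Prep1*-/-. Whether the disrupted part of the gene was read cannot be told from a count per gene. The study reports by immunoblot that Prep1 protein was lost in its null lines, KO2 among them. The median ratio was 0.955 over 13218 expressed genes, that is, genes whose RPKM exceeded 1 in each library. Of 8 ES cell markers all had RPKM above 9 in both libraries and 7 had a ratio above 1, their summed RPKM being 1083 and 1315.

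Prep1 peaks lay at 3 of the 10 genes, and the letters beneath them are given first. The sequences shown are the stretches upstream of *Spry1* and *Etv5* that lie inside their Prep1 peaks, the part of an *Etv5* intron peak around its motif, and the upstream stretch of *Dusp6*, the gene with the lowest ratio of the 10, which had no peak nearby. *Spry1* and *Etv5* were read from mm9 and *Dusp6* from the RefSeq promoter table of GRCm38.p6. Each runs from 5′ to 3′ on the strand of its gene, and capitals mark a match to TGANTGNCA, a loose form of the TGANTGACA element that Prep1 and Pbx bind together, where N is any base.
*Spry1* upstream, chr3:37538669-37538868, plus strand: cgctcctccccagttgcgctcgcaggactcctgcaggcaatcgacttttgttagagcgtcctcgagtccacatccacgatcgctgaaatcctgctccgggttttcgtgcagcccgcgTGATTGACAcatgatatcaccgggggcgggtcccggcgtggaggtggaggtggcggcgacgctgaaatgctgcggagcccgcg
*Etv5* upstream, chr16:22439793-22439992, minus strand: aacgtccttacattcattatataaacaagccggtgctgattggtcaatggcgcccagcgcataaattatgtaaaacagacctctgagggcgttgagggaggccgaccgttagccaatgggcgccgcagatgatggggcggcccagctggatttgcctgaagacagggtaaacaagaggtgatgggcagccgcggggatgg
*Etv5* intron, chr16:22428968-22429076, minus strand: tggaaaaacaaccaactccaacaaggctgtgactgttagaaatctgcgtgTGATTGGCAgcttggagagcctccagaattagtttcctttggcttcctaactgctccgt
*Dusp6* upstream, GRCm38.p6 chr10:99263031-99263230, plus strand: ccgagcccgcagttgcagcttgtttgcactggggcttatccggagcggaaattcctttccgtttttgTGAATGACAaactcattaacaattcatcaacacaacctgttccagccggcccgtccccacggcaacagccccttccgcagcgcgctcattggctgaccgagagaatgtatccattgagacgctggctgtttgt

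The *Spry1* stretch ends at the base before the first annotated start of the gene and holds TGATTGACA from 83 to 75 bases upstream of it. The *Etv5* upstream stretch has no match in either orientation, although it lies inside the strongest peak of these genes. The intron stretch of *Etv5* holds TGATTGGCA, which keeps the loose form but not TGANTGACA. The *Dusp6* stretch holds TGAATGACA from 133 to 125 bases upstream of the RefSeq start. Such matches are letters only and not sites shown to be bound. TGANTGACA was present on either strand in 34.6% of the 3902 Prep1 peaks and in 1.93% of 32851 RefSeq promoters of 300 bases, and TGANTGNCA, which contains it, in 49.1% and 5.1%. The peaks had a median length of 680 bases, and a longer region has more room for a match, so these shares are not on a like length.

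RefSeq promoters were found for 6 of the 10 genes: *Dusp6*, *Spry1*, *Spry2*, *Spred1*, *Spred2* and *Etv5*. Of these, *Spry1* and *Dusp6* held TGANTGACA. None of the 6 held CCGGAAG, a form of the ETS factor element, the cyclic AMP element TGACGTCA or the serum response element known as the CArG box, which were present on either strand in 8.86%, 1.79% and 1.63% of all RefSeq promoters.

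The phosphatases and the Sprouty genes had ratios below 1, and the Spred genes, the ETS factors and *Egr1* had ratios slightly above 1. Of the 10 genes 3 were called lower, *Dusp6*, *Dusp4* and *Spry2*, and 0 were called higher. Among all genes 13.8% of the 13795 with a wild type RPKM above 1 were called lower, and 7.2% of the 13677 with an RPKM above 1 in the other library were called higher. All 10 genes had more than 1000 wild type reads, and among the 6030 genes with that depth 6.83% were called lower and 1.36% higher. The median log2 ratio of the 10 genes was -0.06, beside -0.07 over all expressed genes, since 5 genes lay below a ratio of 1 and 5 above it. The grouping by role follows the families, but the split between the families was seen in the values and carries no test. In RNA from a whole culture, fewer cells of a type and less RNA per cell cannot be told apart.

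**Figure D1:**
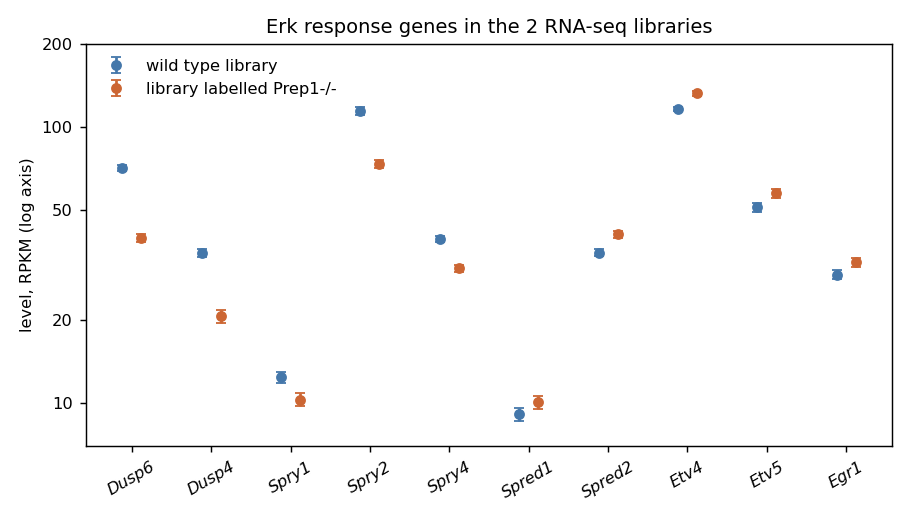
Level of each Erk response gene in RPKM (log axis) in each of the 2 libraries, wild type and labelled *Prep1*-/-, with exact 95% counting intervals as bars. The wild type point is the higher for the 5 phosphatase and Sprouty genes, from *Spry1* (12.5 and 10.3) to *Spry2* (114 and 73.5), and the lower for the other 5.

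*Dusp6*, the cytoplasmic phosphatase that acts on Erk, had 6091 and 3043 reads, or RPKM values of 71.1 and 39.7. Its ratio was 0.559 (0.535 to 0.584), or -0.84 on the log2 scale, and 1.36% of the 6030 genes of like depth had a lower ratio. The intervals of the 2 levels lay far apart, at 69.3 to 72.9 and 38.3 to 41.2 RPKM. *Dusp6* lies on chromosome 10 (mm9, 98725865 to 98730122, plus strand), whose expressed genes had a median ratio of 0.923, and relative to that median its ratio was 0.605.

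*Dusp4*, a nuclear phosphatase of the same family, had 2885 and 1521 reads and RPKM values of 35 and 20.7, a ratio of 0.59 (0.554 to 0.627). It lies on chromosome 8 (35870351 to 35882948, plus strand), where the library labelled *Prep1*-/- was low over many genes. The median ratio of 702 expressed genes of that chromosome was 0.779, and 31.1% of its 739 genes with a wild type RPKM above 1 were called lower and 3.23% of 712 higher. With the median of each chromosome set to 1, the ratio of *Dusp4* was 0.757 and it was no longer called, while *Dusp6* and *Spry2* still were. Without chromosome 8, 2 of 9 genes were called lower, beside 12.8% of the 13056 genes on the other chromosomes.

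The Sprouty genes encode adaptors that hold back receptor tyrosine kinase signalling, and their ratios spread over a wide range. *Spry2* had 5267 and 3025 reads, RPKM values of 114 and 73.5, and a ratio of 0.642 (0.614 to 0.672), the only one of the 3 below the threshold. *Spry4* had 5725 and 4009 reads, RPKM values of 39.4 and 30.8, and a ratio of 0.783 (0.752 to 0.815). *Spry1* had 1998 and 1482 reads, RPKM values of 12.5 and 10.3, and a ratio of 0.83 (0.775 to 0.887). The 3 wild type levels exceeded the levels in the other library beyond counting error, but 14.9% and 21.8% of the genes of like depth had a lower ratio than *Spry4* and *Spry1*, against 3.58% for *Spry2*. *Spry2* lies on chromosome 14, with a median ratio of 1.03, and its ratio over that median was 0.624.

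The Spred genes, which encode membrane proteins that restrain signalling from Ras to Raf, were not called. *Spred2* had 4625 and 4826 reads and RPKM values of 35.1 and 40.9, a ratio of 1.17 (1.12 to 1.22), and *Spred1* had 1438 and 1422 reads and RPKM values of 9.14 and 10.1, a ratio of 1.11 (1.03 to 1.19). Both intervals lay above 1, yet 88.7% and 81.9% of genes of like depth had a lower ratio, so more than 1 gene in 10 exceeded each of them.

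The ETS factors *Etv4* and *Etv5*, transcription factors that carry Fgf signals to target genes, gave nearly the same ratio. *Etv4* had 10756 and 10985 reads, RPKM values of 116 and 133, and a ratio of 1.14 (1.11 to 1.17). *Etv5* had 3002 and 3019 reads, RPKM values of 51.2 and 57.6, and a ratio of 1.12 (1.07 to 1.18). *Egr1*, the classical immediate early transcription factor of the pathway, had 2814 and 2789 reads, RPKM values of 29.2 and 32.4, and a ratio of 1.11 (1.05 to 1.17). Exons of *Egr1* overlap a predicted gene on the opposite strand in the annotation, whose reads could be counted with it unless the counting used strand, while the other 9 genes overlap no annotated gene.

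**Figure D2:**
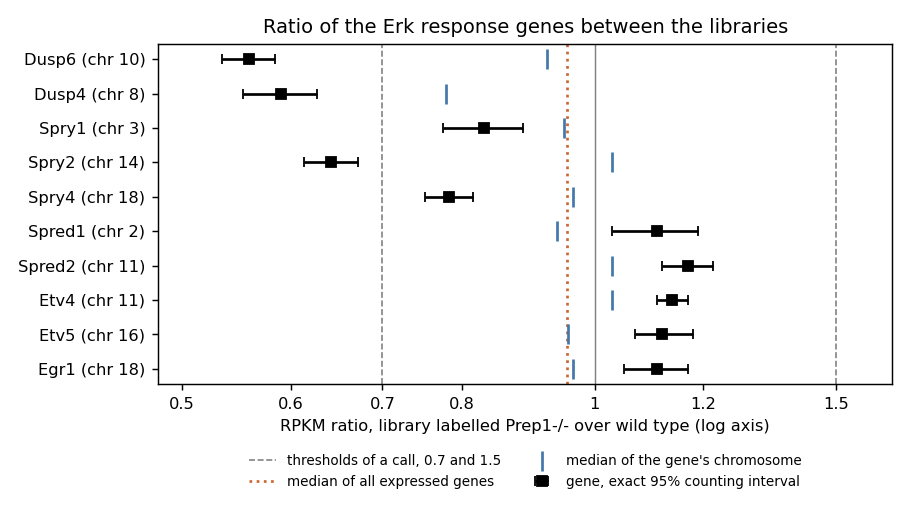
Ratio of RPKM, library labelled *Prep1*-/- over wild type (log axis), for each gene with its exact 95% counting interval, beside the thresholds 0.7 and 1.5, the median ratio of all expressed genes (0.955) and the median of the gene's own chromosome. *Dusp6*, *Dusp4* and *Spry2* lie wholly below 0.7, and the 5 genes from *Spred1* to *Egr1* lie between 1.03 and 1.22 with their intervals.

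At the deposited read counts all 10 intervals excluded a ratio of 1, with 5 below it and 5 above it. That was common, since 47.3% of the 6030 genes with 1000 or more wild type reads had an interval wholly below 1 and 25.8% had one wholly above. The RPKM of the 5 phosphatase and Sprouty genes summed to 272 and 175, and that of the Spred genes, ETS factors and *Egr1* to 241 and 274. Over all 10 genes the sums were 513 and 449. The ratios of the first 5 ranged from 0.559 to 0.83 and those of the second 5 from 1.11 to 1.17. The families were joined by their side of 1, so this separation follows from the grouping.

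In the wild type library *Etv4* (116 RPKM) and *Spry2* (114) had the highest levels, and their counting intervals overlapped. *Dusp6*, *Etv5* and *Spry4* followed, then *Spred2* (35.1) and *Dusp4* (35), which could not be told apart, then *Egr1*, *Spry1* and *Spred1*. In the library labelled *Prep1*-/- *Etv4* stood alone at 133 RPKM, with *Spry2* next at 73.5. *Etv5* followed, *Spred2* (40.9) and *Dusp6* (39.7) overlapped, as did *Egr1* (32.4) and *Spry4* (30.8) and the last pair, *Spry1* (10.3) and *Spred1* (10.1). *Dusp6* thus went from the third place to the fifth and *Dusp4* from the seventh to the eighth. The order between genes also depends on the gene length used: per kilobase of annotated exon *Etv4*, *Spry2* and *Dusp6* led in both libraries, while *Etv5* came eighth and seventh. The ratios between libraries do not depend on it.

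The closest relatives of these genes had ratios below 1. Of 14 paralogues listed, the 13 in the files all had a ratio below 1, beside 58.8% of all expressed genes. Their median ratio was 0.723, 4 were called lower and 0 higher, and 9 intervals lay wholly below 1. Of the 13, 11 had a wild type RPKM above 1, and among all genes above that level 13.8% were called lower. The 4 were *Dusp5*, *Dusp2*, *Dusp8* and *Egr3*. *Dusp5*, a nuclear phosphatase of Erk, had 1826 and 997 reads and a ratio of 0.611 (0.565 to 0.66). The other 3 were thinly read: *Dusp8*, which acts on other MAP kinases, had 307 and 180 reads (ratio 0.657), *Dusp2* had 82 and 37 (0.512) and *Egr3* had 57 and 11 (0.231, 0.102 to 0.416). Those with the most reads were not called. *Dusp9*, an Erk phosphatase abundant in ES cells, had 11759 and 10320 reads and a ratio of 0.981 (0.956 to 1.01), *Dusp1*, which acts on several MAP kinases, had 8588 and 6201 reads and 0.807, *Dusp16* had 2655 and 2320 and 0.977, and *Spred3* had 2487 and 1645 and 0.74. *Spred3*, with an interval of 0.694 to 0.787, thus lay on the other side of 1 from *Spred1* and *Spred2*. *Spry3* was not analysed here.

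Immediate early genes other than *Egr1* are transcribed within minutes of a stimulus, and the 20 here were listed with earlier results of these data known. Of these, 11 were called lower and 0 higher, beside 13.8% called lower among all genes with a wild type RPKM above 1. The count was 8 to 10 under the other scalings and pseudocounts and 6 by whole intervals, while 19 had a ratio below 1, and the median ratio was 0.688. Of those called, *Cyr61*, a secreted matrix protein, had 13894 and 7669 reads (ratio 0.617, 0.6 to 0.635), *Ier2* had 5282 and 2723 (0.577), *Klf6*, a zinc finger factor, had 4575 and 2752 (0.673) and *Btg2*, an inhibitor of proliferation, had 2963 and 1615 (0.61). The AP-1 subunit *Fosl2* had 1630 and 783 reads and a ratio of 0.537 (0.493 to 0.585), and *Zfp36*, which speeds the decay of short-lived mRNAs, had 2812 and 1499 reads and 0.596. *Junb* (2710 and 1238 reads, 0.511), *Ier2* and *Jund* (16 and 6 reads, 0.46) lie on chromosome 8. On the other chromosomes 8 of 17 genes were called lower, beside 12.8% of all genes there with a wild type RPKM above 1. The median ratio of the 17 was 0.704. *Fos* (198 and 121 reads, 0.685), *Fosb* (130 and 80, 0.691) and *Ier5* (181 and 92, 0.571) completed the list of those called, and the intervals of *Fos* and *Fosb* reached 0.861 and 0.916. The interval of *Jund*, 0.134 to 1.13, spanned 1. The feature counted under that symbol is 543 bases long on the minus strand, and whether it holds the *Jund* mRNA was not tested. It is among the 11 called, but not among the 8 called on the other chromosomes. Of the uncalled genes with the most reads, *Mcl1*, a survival factor, had 10862 and 9333 reads and a ratio of 0.961, *Myc* had 5817 and 5327 reads and 1.02 (0.986 to 1.06), and *Ctgf*, a relative of *Cyr61*, had 4959 and 3373 reads and 0.761.

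Of 10 further Erk outputs 1 was called lower and 0 higher, with a median ratio of 0.839. Among all genes 13.8% of those with a wild type RPKM above 1 were called lower. Of those with a *Prep1*-/- RPKM above 1, 7.2% were called higher. *Errfi1*, a feedback inhibitor of the EGF receptor, had 6561 and 4099 reads and a ratio of 0.699 (0.672 to 0.726), an interval that includes the threshold. Of those with the most reads, *Sulf2*, a sulfatase that trims heparan sulfate, had 15687 and 15911 reads and a ratio of 1.13, *Epha2*, a receptor kinase, had 13186 and 8916 and 0.756, and *Ccnd1*, the cyclin D1 gene, had 10314 and 8825 and 0.957.

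The genes of the cascade from Fgf receptor to Erk had a median ratio of 1.04. Of the 32 genes 2 were called lower and 2 higher. Among all genes 13.8% of those with a wild type RPKM above 1 were called lower. Of those with a *Prep1*-/- RPKM above 1, 7.2% were called higher. The 10 genes for Ras, Raf, Mek and Erk proteins held 0 calls, with ratios from 0.755 (*Hras1*) to 1.4 (*Braf*) and a median of 1.01. Each had more than 1000 wild type reads, a depth at which 6.83% of all genes were called lower and 1.36% higher. The 2 called lower were the adaptor *Gab1* on chromosome 8, with 19247 and 1521 reads and a ratio of 0.0884, and the receptor *Fgfr4*, with 181 and 91 reads and 0.565. The 2 called higher, the receptor *Fgfr2* (772 and 1093 reads, 1.58, 1.44 to 1.74) and the scaffold *Ksr1* (800 and 1081 reads, 1.51, 1.38 to 1.66), had intervals that include the threshold. *Fgfr1*, the receptor with the most reads, had 19032 and 12046 reads and a ratio of 0.708 on chromosome 8.

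**Figure D3:**
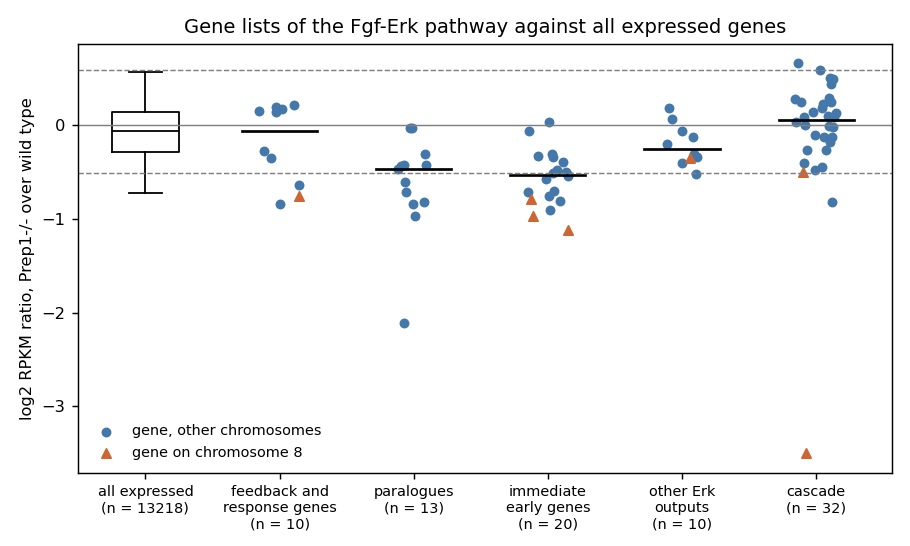
Log2 ratio of RPKM, library labelled *Prep1*-/- over wild type, for the genes of each list (points, chromosome 8 as triangles, bars at the list medians), beside all expressed genes (box from the first to the third quartile with the median, whiskers at the 5th and 95th percentiles). Dashed lines mark ratios of 0.7 and 1.5. The medians are -0.06 for the feedback and response genes, -0.47 for their paralogues, -0.54 for the immediate early genes, -0.25 for the other outputs and 0.06 for the cascade.

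Markers of other cell types went different ways between the libraries. The 5 mesendoderm markers, among them *T* (ratio 0.249), all had a ratio below 1 and summed to 28.3 and 8.71 RPKM, and 6 of 7 primitive endoderm markers were below 1, with sums of 10.8 and 6.1. Of 5 trophectoderm markers 4 were below 1, with sums of 820 and 503 made up mostly of the keratins *Krt8* and *Krt18*. Primed epiblast markers summed to 155 and 157, and neural markers to 24.4 and 18.5. The flat primed sum came mostly from *Dnmt3b* (ratio 1.01), with 3 of 5 markers above 1, among them *Otx2* (2.2, called higher), and *Fgf5* at 0.323. The neural sum came mostly from *Nes* (0.684), and 2 of 3 neural markers were above 1, *Pax6* (1.83, called higher) and *Sox1* (1.26). Of 8 fibroblast markers 7 were above 1, with sums of 26.2 and 31.7, and *Lum*, which had 0 reads in the wild type library, was the only marker of any list at 0. Their part in the ratios of the phosphatases, the Sprouty genes and the immediate early genes was not tested.

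Prep1 ChIP-seq peaks, which the authors called in wild type ES cells, were at 3 of the 10 genes, or 30% beside 34.6% of 5976 annotated genes with 1000 or more wild type reads. A peak was counted at a gene when its midpoint lay from 500 bases before to 100 bases after an annotated start, inside the gene, or within 20 kb of it. The score is the rounded enrichment of the peak over input, with a median of 21 and a range of 4 to 336 over all 3902 peaks. Peaks at the start were present at 2 of the 10 genes, or 20% beside 12.7%.

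*Etv5* had the highest score of these genes. Its peak at the start (chr16:22439229-22440374, the region of the upstream stretch shown above) had a score of 113, above 89.4% of all peaks, with its midpoint 9 bases upstream of the start. A second peak, of score 27, lay in an intron at chr16:22428685-22429407 and holds the TGATTGGCA shown above. The *Spry1* peak (chr3:37538350-37539482) had a score of 48 and its midpoint 47 bases downstream of the start. *Spred2* had an intron peak of score 17 at chr11:19877425-19878181, 53.4 kb into the gene, with no match to TGANTGNCA.

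None of the 3 genes called lower had a Prep1 peak within 20 kb. Such a peak was also absent from 65.4% of the 5976 annotated genes with 1000 or more wild type reads. The peak nearest to *Spry2* was 24.1 kb upstream of the start with a score of 13, and a second lay 26.4 kb upstream with a score of 11. These peaks hold TGACTGCCA, and TGAGTGACA and TGAGTGGCA. The peak nearest to *Dusp4* was 413.5 kb downstream of its start, and that nearest to *Dusp6*, whose upstream stretch holds the motif, was 3323 kb away. The nearest peaks of *Egr1*, *Etv4*, *Spry4* and *Spred1* lay 81.8, 111.1, 123.2 and 1054 kb from their starts. The 3 genes with a peak had ratios of 1.12, 0.83 and 1.17 for *Etv5*, *Spry1* and *Spred2*, and 0 of them were called. Among the 6030 genes with 1000 or more wild type reads 6.83% were called lower and 1.36% higher. A relation between peaks and calls was not tested. ChIP-seq was made in wild type cells and in 1 library, so the data hold no binding in cells without Prep1.

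**Figure D4:**
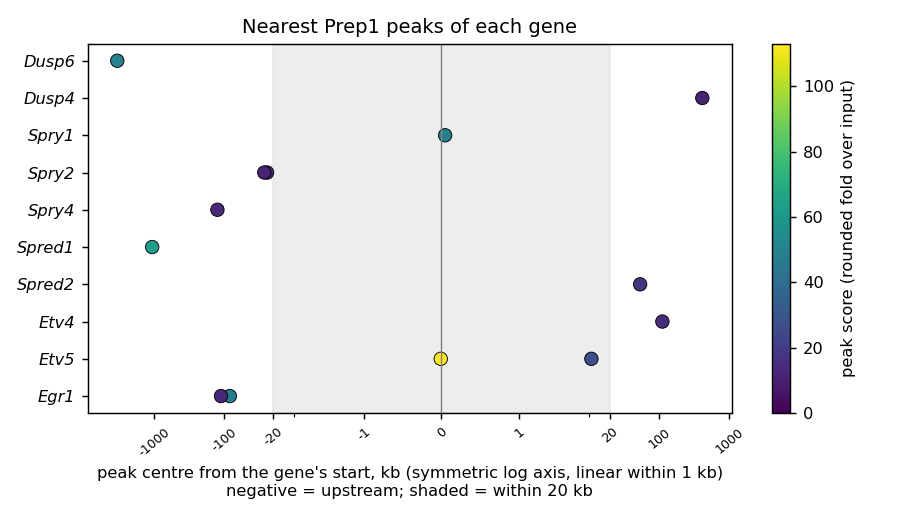
Prep1 peaks nearest to each gene, by the distance of the peak centre from the gene's start in kb (symmetric log axis, negative upstream) and coloured by score. The shaded band marks 20 kb on either side, in which only *Spry1* (score 48) and *Etv5* (scores 113 and 27) have peaks, and the *Spred2* peak lies beyond it but inside the gene.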

How the data were processed

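RNA-seq of 1 wild type and 1 *Prep1*-/- ES cell line and 1 Prep1 ChIP-seq library were used. The authors assigned paired-end reads to Ensembl genes (mm9) with RSEM and used DESeq, and they deposited a whole-number read count per gene, without normalization. They also deposited an RPKM per gene, which from the values is proportional to the read count plus 1. RPKM was listed as Inf for 85 genes, which were left out. The peak score the authors deposited is the rounded fold enrichment over input of peaks called with MACS after mapping with BWA. Program versions are not given in the sources used here.

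No pseudocount was added to the ratios beyond the 1 read contained in the authors' RPKM, while the intervals used the read counts alone. *Lum*, with 0 and 2 reads, thus had a ratio of 3.35. Intervals came from the exact binomial interval of the share of a gene's reads from the library labelled *Prep1*-/-, times the factor of 1.12 between the libraries. Calls used the ratio thresholds of the study. The study kept RNAs with an RPKM above 1 from those detected in wild type cells, while the call of higher here used the *Prep1*-/- RPKM. *Pax6*, with a wild type RPKM of 0.939, could thus be called higher. The 10 genes had 1422 to 10985 reads per library, so counting error is small, but variation between cultures was not measured. Gene starts and overlaps came from GENCODE M1 on mm9, which held 21446 genes of the files.

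The genes, lists and alternatives were chosen with earlier results of these data known. The genes named are the 10 genes, *Pknox1*, and from each other list those called and up to 4 with the most reads. Of these, 2 genes are not reported here. *Hras1*, *Braf*, the single markers named and the peaks beyond 20 kb were singled out after their values were seen. Calls and intervals were tested on simulated data with counting error only and with planted changes larger than those of the 10 genes. That test holds no variation between cultures or from amplification. Alternatives were other scalings (TMM of edgeR 4.0.16, size factors of DESeq2 1.42.0, summed reads, medians), pseudocounts, filters, thresholds and peak definitions. Python 3.11.15, scipy 1.17.1 and R 4.3.3 were used.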

Additional observations from a re-analysis of the deposited data

How the results depend on the processing

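No paired analysis was possible because each genotype has 1 library, and for the same reason no library could be left out. Of 141 alternative values of the counts, the median and the peaks, 115 stayed near the reported value. Near means within 1.5 times the reported count or, for the median, within the spread of the 10 genes, which is wide. Many of the 115 were counts of genes called higher that were 0 and stayed at 0. Of 70 alternative ratios of the 10 genes, 19 lay outside the counting interval of the gene. Only the ratios of the 3 called genes could count as reversed, and 0 did. The 3 genes called lower remained called under the other scalings and pseudocounts, except *Dusp4* with each chromosome's median set to 1, and the ratios ranged from 0.559 to 0.605 for *Dusp6*, from 0.591 to 0.757 for *Dusp4* and from 0.624 to 0.676 for *Spry2*. All 10 genes kept their side of a ratio of 1 under those settings. With thresholds of 0.5 and 2 the counts called lower became 0 of the 10 genes, 1 paralogue, 1 immediate early gene, 0 other outputs and 1 cascade gene, and 0 cascade genes were called higher. Counting only intervals wholly beyond 0.7 or 1.5 left 3 of the 10 genes, 2 paralogues, 6 immediate early genes, 0 other outputs and 1 cascade gene lower, and 0 cascade genes higher. An RPKM above 5 left 1 paralogue and 1 cascade gene lower and 1 cascade gene higher. The 1 other output, *Errfi1*, was lost (0 called) with summed read counts, the median of expressed genes set to 1, TMM, DESeq2 size factors, each chromosome's median set to 1, a pseudocount of 1 or thresholds of 1/1.5 and 1.5. Cascade genes called lower were 1 with a pseudocount of 1 or without chromosome 8, which was added after seeing the data. Cascade genes called higher were 1 with each chromosome's median set to 1 or a pseudocount of 0.1, and 0 with a pseudocount of 1. Fewer genes can pass a stricter threshold or filter by construction, and the cause of the other changes was not tested. The genes with a Prep1 peak were 2 with the stronger peaks only and 4 with 50 kb counted as close, which adds *Spry2*. Depth limits the ratios of genes with under 200 reads, such as *Dusp2*, *Egr3*, *Fosb* and *Jund*.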
